A study of Mus musculus with 19 samples.

Results

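Marker genes of the hippocampal pyramidal cell fields CA1, CA2 and CA3 were followed across 19 libraries of mouse dorsal hippocampus. The aim was to describe the levels of these markers in each dissection, and whether their balance between fields moved with tTA genotype. The markers are defined by symbol, with no threshold on their values, and the set was proposed with earlier results of these data known. They are 10 of the 51789 genes counted: Wfs1, Fibcd1, Mpped1 and Pou3f1 for CA1, Rgs14, Amigo2 and Pcp4 for CA2, and Bok, Iyd and Cpne4 for CA3. All 10 were found in the table, and all 10 passed the filter on low counts in every comparison. None of the 10 was called changed by tTA genotype, by SOR exposure or by the DN transgene with all libraries in the fit. Rgs14 was called lower in tTA+ libraries once 1 library that stood apart was left out. That fit called 288 of 23597 genes (1.22%), beside 86 of 23659 (0.363%) with all libraries. The library left out was tTA+ and held the highest Rgs14 level of the 19.

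The pyramidal neurons of the hippocampus lie in a curved layer. Granule cells of the dentate gyrus send mossy fibres to CA3, CA3 neurons send Schaffer collaterals to CA1, and CA1 neurons carry the output to the subiculum and cortex. CA2 is a narrow field between CA3 and CA1 that is known for resisting long-term potentiation and for its part in social memory. Each field has genes enriched in it, though not always exclusive to it. Their levels in a bulk sample can be read as a rough mark of the tissue taken. In such a sample fewer cells of a field and less RNA per cell cannot be told apart.

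The libraries were made from total RNA depleted of ribosomal RNA, and the mice were male C57BL/6J animals aged 2 to 4 months. The labels do not say whether each library came from a mouse of its own, so libraries are counted here. In experiment 1 every library came from tTA+ tissue exposed to SOR, a condition known from the labels by its abbreviation only. Of these, 5 libraries were DN+, from a dominant-negative Nr4A transgene (genotype tTA+/DN+), and 6 were from control littermates (tTA+/DN-). In experiment 2 every library was DN-, with 4 of SOR exposure and 4 of the homecage. The tTA- libraries of experiment 2 were SOR replicate 1 and homecage replicates 1 and 2, and the 5 tTA+ libraries were SOR replicates 2 to 4 and homecage replicates 3 and 4. The promoter that drives the transactivator tTA is not given in the sources used here.

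Libraries held 22258159 to 66991576 counts. The smallest, SOR replicate 3 of experiment 2 (tTA+), stood apart from the rest of its experiment. It had a count for 27815 genes, against at least 30165 in every other library. Across 13683 protein-coding genes its deviation from the mean of the other 7 libraries of experiment 2 correlated with the GC content of the transcript at r = 0.54. Genes do not count as replicates here, and r is a description. The same r lay between -0.397 and 0.0203 in the other 7 libraries. The median deviation ran from -0.463 (log2) in transcripts with less than 40% GC to 0.505 in those with more than 60% GC.

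The field markers had transcripts of 45.7 to 63.9% GC, and 2 of them are shown in sequence. The first 90 coding bases of Pou3f1, the marker that was most above the other libraries in SOR replicate 3, and of Pcp4, the marker that was most below them, are given 5′ to 3′ from the GENCODE M21 transcripts, with G and C in capitals.
Pou3f1: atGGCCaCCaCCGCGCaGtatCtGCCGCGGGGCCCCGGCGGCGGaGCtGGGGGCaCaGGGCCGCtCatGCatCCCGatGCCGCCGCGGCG
Pcp4: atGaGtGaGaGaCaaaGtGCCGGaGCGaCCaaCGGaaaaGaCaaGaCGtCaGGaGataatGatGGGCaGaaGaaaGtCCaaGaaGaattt
In these stretches 70 of 90 bases of Pou3f1 and 41 of 90 bases of Pcp4 are G or C. Over the whole transcript the GC content was 63.9% for Pou3f1, 61.0% for Bok, 59.4% for Fibcd1, 57.8% for Wfs1, 57.6% for Rgs14 and 53.7% for Mpped1. It was 48.1% for Amigo2, 47.1% for Pcp4, 46.5% for Cpne4 and 45.7% for Iyd.

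In SOR replicate 3 the level of Pou3f1 was 59.5 CPM (counts relative to the library total, scaled by TMM over all libraries), against 28.0 to 37.7 CPM in the other 7 libraries of experiment 2. Rgs14 was at 183 CPM against 108 to 154, and Bok at 146 CPM against 85.6 to 104. Pcp4 was at 4.65 CPM against 13.1 to 25.8, and Cpne4 at 119 CPM against 132 to 140. So 3 markers lay above and 2 below every other library of the experiment, and the other 5 lay within their range. Set against genes of like GC content, 6 markers lay within the quartiles. Quartiles enclose the middle part of such genes by definition, so this count is not a result about the markers. Those within included Bok at 0.669 (log2, quartiles 0.285 to 0.73) and Rgs14 at 0.54 (0.117 to 0.542), the latter close to its upper quartile. Pou3f1, at 0.845, lay above the upper quartile of 0.73. Fibcd1, at 0.0322, and Wfs1, at 0.109, lay below the lower quartile of 0.117, and Pcp4, at -1.98, lay below that of -0.202. The part of GC content in these levels was not tested, and results that rest on this library are given also without it.

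**Figure D1:**
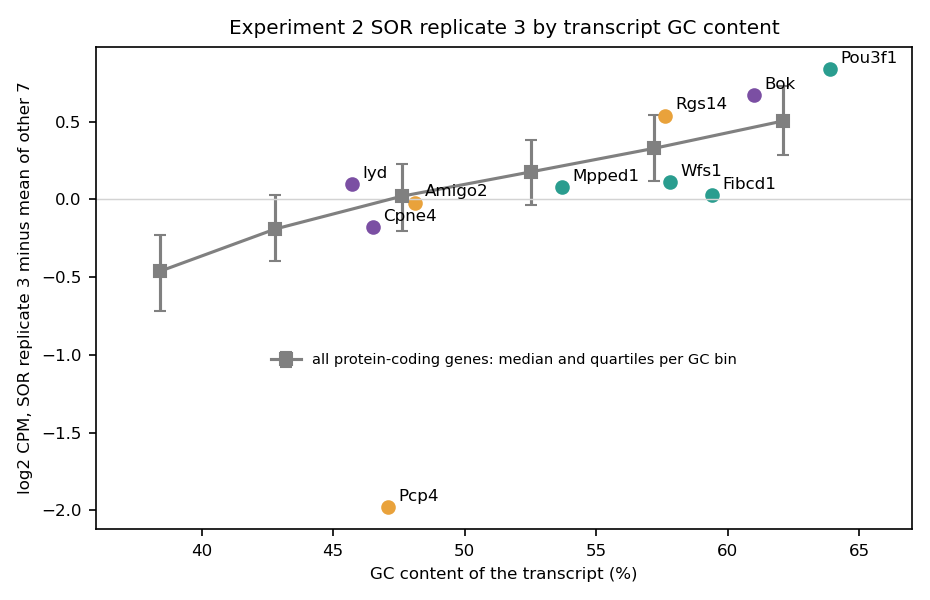
Deviation of SOR replicate 3 from the mean of the other 7 libraries of experiment 2 (log2 CPM, y axis) against transcript GC content (percent, x axis) for the 10 field markers (green CA1, orange CA2, purple CA3), with medians and quartiles of all 13683 protein-coding genes per GC bin in grey. Pou3f1, Bok and Rgs14 sit at the upper right, and Pcp4 sits at -1.98, far under the grey line.

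Of the CA1 markers, Wfs1 (ENSMUSG00000039474.13, GRCm38 chromosome 5, 36966104 to 36989205) encodes wolframin, a membrane protein of the endoplasmic reticulum, and averaged 91.0 ± 11.8 CPM (SD, n = 19 libraries). Fibcd1 (ENSMUSG00000026841.7, chromosome 2, 31813290 to 31846005), a cell surface receptor that binds acetylated sugars such as chitin, averaged 112 ± 22 CPM. Mpped1 (ENSMUSG00000041708.12, chromosome 15, 83779467 to 83858494), a protein with a metallophosphoesterase domain, averaged 142 ± 15.6 CPM. Pou3f1 (ENSMUSG00000090125.3, chromosome 4, 124656807 to 124660655), a POU homeodomain transcription factor encoded by a single exon, averaged 26.5 ± 10.8 CPM. Over the 19 libraries Pou3f1 had a coefficient of variation of 40.8%, which pools experiments with unlike means. Within experiment 1 it was 5.92%, and within experiment 2 it was 27.1%, or 11.6% without SOR replicate 3.

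Of the CA2 markers, Rgs14 (ENSMUSG00000052087.13, chromosome 13, 55369732 to 55384687), a regulator of G protein signalling that limits synaptic plasticity in CA2, averaged 112 ± 26.1 CPM. Amigo2 (ENSMUSG00000048218.5, chromosome 15, 97244125 to 97247287), a leucine-rich repeat adhesion protein, averaged 23.9 ± 3.17 CPM. Pcp4 (ENSMUSG00000090223.1, chromosome 16, 96467606 to 96525793), a small protein that binds calmodulin, averaged 15.1 ± 4.39 CPM. Pcp4 is also made in dentate granule cells and thalamic neurons, so it is not exclusive to CA2.

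Of the CA3 markers, Bok (ENSMUSG00000026278.14, chromosome 1, 93685660 to 93695764), a member of the BCL2 family, averaged 74.7 ± 25 CPM. Iyd (ENSMUSG00000019762.4, chromosome 10, 3540240 to 3554877), the iodotyrosine deiodinase that recycles iodide in the thyroid, averaged 5.06 ± 1.10 CPM, from 113 to 329 counts per library. Cpne4 (ENSMUSG00000032564.16, chromosome 9, 104547286 to 105034544), a copine that binds phospholipids in the presence of calcium, averaged 132 ± 7.02 CPM. Within experiment 1 the coefficient of variation ran from 5.78% for Cpne4 to 16.8% for Iyd, and within experiment 2 from 4.8% for Cpne4 to 36.9% for Pcp4. In experiment 2 without SOR replicate 3 these became 2.28% for Cpne4 and 21.9% for Pcp4.

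Levels of different genes were compared per length, as CPM per kb of annotated exon, within each experiment. In experiment 1 (11 libraries) Bok at 31.1 ± 2.58 CPM per kb (SD) and Mpped1 at 30.8 ± 2.34 differed by less than either SD. Wfs1 at 25.4 ± 2.86, Cpne4 at 23.9 ± 1.38, Rgs14 at 22.6 ± 2.09 and Fibcd1 at 20.6 ± 2.31 CPM per kb came next, with neighbours no further apart than the larger SD. Pcp4 at 13.4 ± 1.2, Amigo2 at 7.29 ± 0.585, Pou3f1 at 4.98 ± 0.295 and Iyd at 2.74 ± 0.461 CPM per kb were lower and apart from each other.

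In experiment 2 (8 libraries) Bok stood at 53.7 ± 11.1 CPM per kb, and at 50.1 ± 4.27 in the 7 libraries other than SOR replicate 3. In those 7 libraries Mpped1 at 35.8 ± 3.0, Rgs14 at 29.9 ± 4.38, Fibcd1 at 27.8 ± 3.94, Cpne4 at 24.7 ± 0.563 and Pcp4 at 18.4 ± 4.02 CPM per kb followed, with Wfs1 between the last 2. From Rgs14 to Pcp4 neighbours were no further apart than the larger SD, and Mpped1 and Rgs14 were so only with SOR replicate 3 included, where Rgs14 was at 31.5 ± 6.18. Pou3f1 at 8.66 ± 1.01 and Amigo2 at 7.95 ± 1.46 CPM per kb were within the larger SD of each other, and Iyd was lowest at 3.61 ± 0.622. The order of the 10 means was the same over all 8 libraries. In both experiments CA1 and CA3 each had a marker among the highest and another among the lowest, so the order did not follow the fields.

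**Figure D2:**
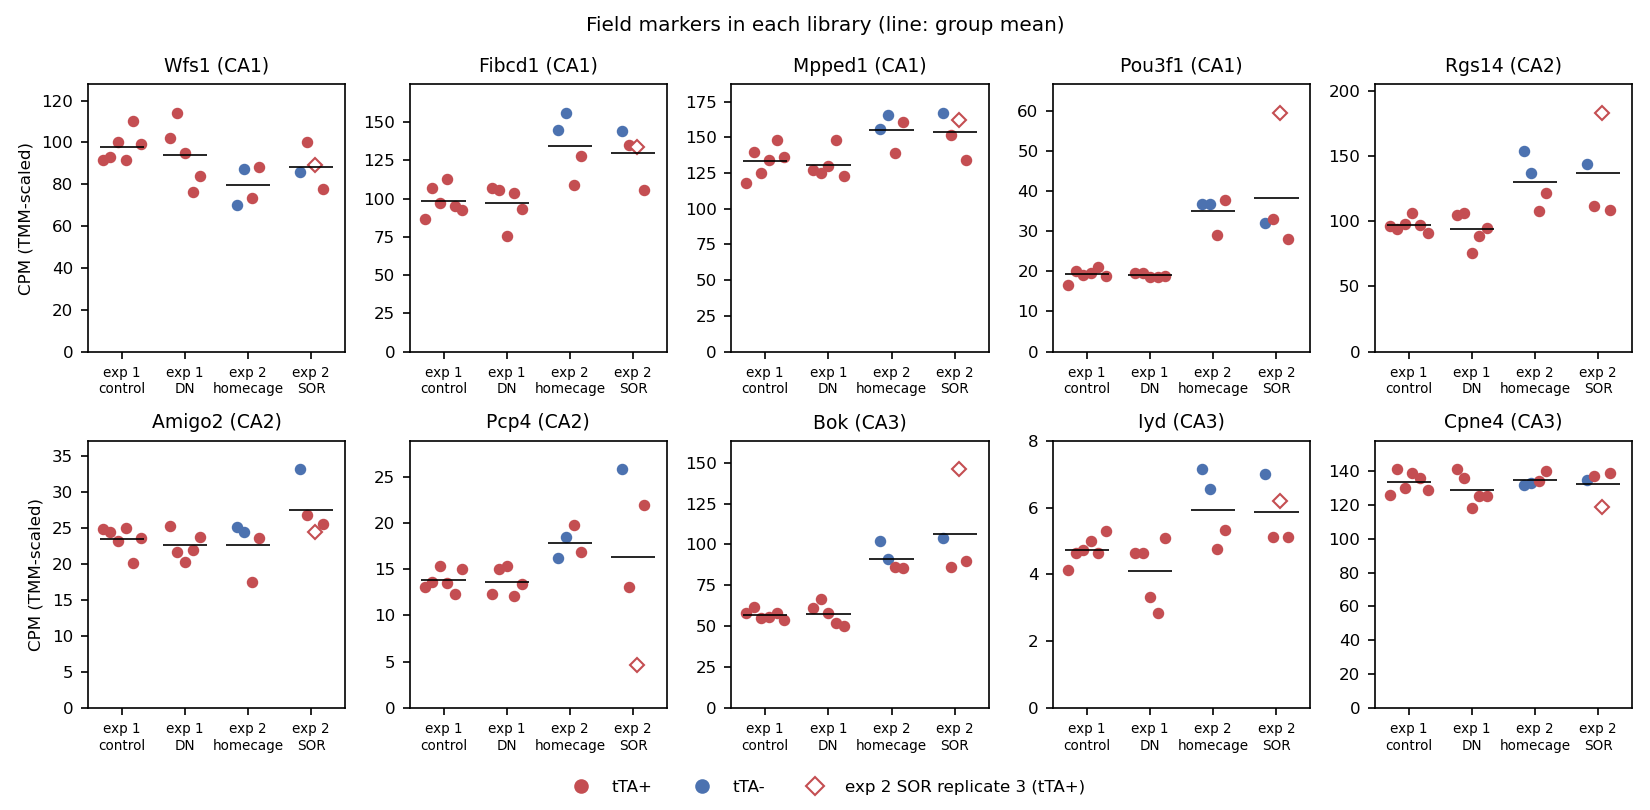
Level of each field marker (CPM, scaled by TMM over all 19 libraries, y axis) in each library, by group, with red points for tTA+, blue for tTA-, an open diamond for SOR replicate 3 and lines at the group means. Pou3f1, Rgs14 and Bok sit higher in every library of experiment 2 than in any of experiment 1, while Cpne4 stays between 118 and 141 CPM throughout.

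The balance of the fields was described in 2 ways. As a share of the summed CPM per kb of the 10 markers, the CA1 markers made up 38.1 to 47.0%, the CA2 markers 20.9 to 27.2% and the CA3 markers 30.3 to 39.6% across the 19 libraries. These shares rest on 4 CA1, 3 CA2 and 3 CA3 markers, weighted toward the highest of them, so they are not shares of tissue. The CA1 share was 42.5 to 47.0% in experiment 1 and 38.1 to 44.7% in experiment 2. The CA3 share was 30.3 to 32.6% and 32.4 to 39.6%. Of the CA3 markers, Bok averaged 31.1 and 53.7 CPM per kb in these experiments, Cpne4 23.9 and 24.3 and Iyd 2.74 and 3.64. The lowest CA2 share and the highest CA3 share were those of SOR replicate 3 of experiment 2, and the other libraries of that experiment had 21.5 to 27.2% for CA2 and 32.4 to 36.1% for CA3. As a score, the mean over a field's markers of log2 CPM centred on each gene's mean over the 19 libraries, CA1 minus CA3 ran from -0.192 in SOR replicate 4 of experiment 2 to 0.275 in DN replicate 4. CA1 minus CA2 reached 0.708 and CA2 minus CA3 reached -0.682 in SOR replicate 3 of experiment 2, where Pcp4 was low. Without that library CA1 minus CA2 lay between -0.341 and 0.217 in experiment 2, beside -0.211 to 0.19 in experiment 1, and CA2 minus CA3 between -0.0983 and 0.212, beside -0.0947 to 0.221.

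By tTA genotype in experiment 2, the CA1 share was 41.1% ± 2.76 (SD, n = 5) in tTA+ libraries and 40.8% ± 2.25 (n = 3) in tTA- libraries. The CA2 share was 23.2% ± 2.01 in tTA+ and 25.5% ± 1.54 in tTA- libraries, and the CA3 share was 35.7% ± 2.47 in tTA+ and 33.7% ± 1.35 in tTA- libraries. Leaving out SOR replicate 3, the tTA+ shares were 41.5% ± 3.04 for CA1, 23.8% ± 1.78 for CA2 and 34.8% ± 1.41 for CA3 (n = 4). The ranges of the genotypes overlapped for each of the 3 shares, with and without that library. CA1 minus CA3 was -0.0118 ± 0.133 in tTA+ and -0.0775 ± 0.118 in tTA- libraries, a difference smaller than the SD of either genotype. CA1 minus CA2 was 0.147 ± 0.364 in tTA+ and -0.112 ± 0.209 in tTA- libraries, and CA2 minus CA3 was -0.159 ± 0.301 and 0.0345 ± 0.16. In the 4 tTA+ libraries other than SOR replicate 3 these were -0.0213 ± 0.152 for CA1 minus CA3, 0.00682 ± 0.214 for CA1 minus CA2 and -0.0281 ± 0.0805 for CA2 minus CA3. The CA2 score did not overlap, at -0.279 to 0.232 in tTA+ libraries and 0.243 to 0.572 in tTA- libraries, with the nearest libraries 0.232 and 0.243. SOR replicate 3 was the lowest, with Pcp4 at 4.65 CPM (93 counts) against 16.2 to 25.8 CPM in the tTA- libraries. Its Rgs14, at 183 CPM, was above their 137 to 154 CPM, and its Amigo2, at 24.4 CPM, was level with their lowest of 24.4 CPM. So the place of that library below the tTA- libraries rests on Pcp4. Without SOR replicate 3 the tTA+ libraries ran from 0.00169 to 0.232. The CA3 score overlapped with all libraries, at 0.0763 to 0.403 in tTA+ and 0.254 to 0.36 in tTA- libraries, and did not without SOR replicate 3, where the tTA+ libraries reached 0.15. The CA1 score overlapped either way. The scores were not tested, since the markers were chosen with earlier results known.

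**Figure D3:**
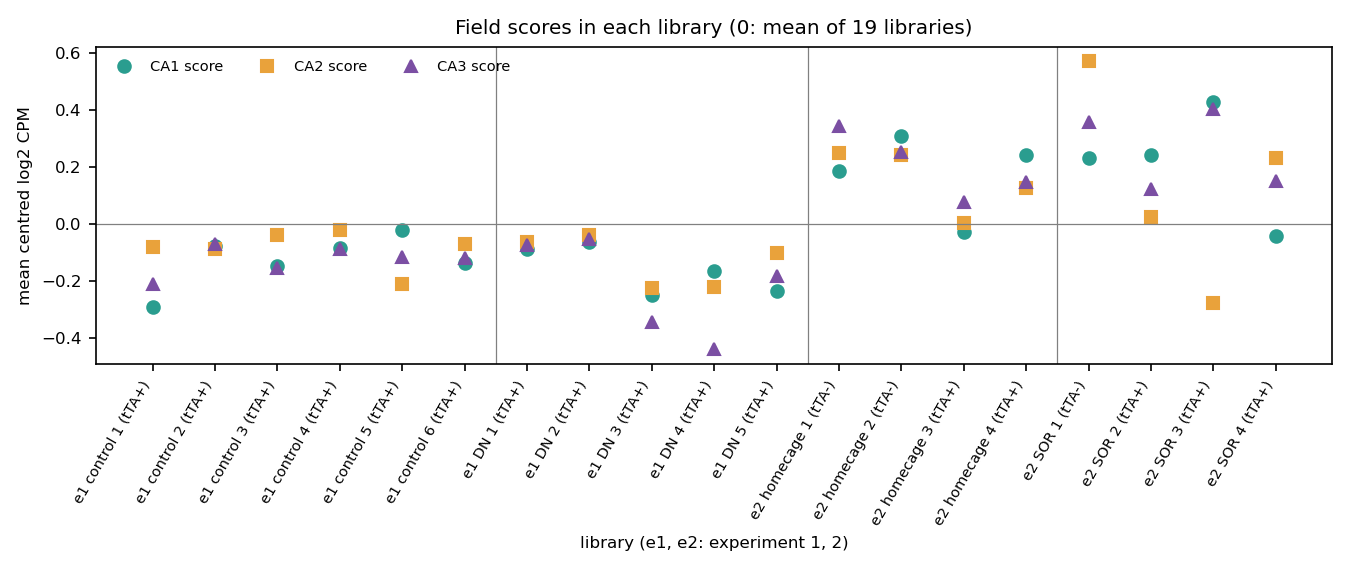
Score of each field (mean log2 CPM of its markers, centred on the mean of 19 libraries) in each library, as green circles (CA1), orange squares (CA2) and purple triangles (CA3). The CA2 score of SOR replicate 3 is -0.279, with Pcp4 low (4.65 CPM) and Rgs14 high (183 CPM) in that library. The CA2 scores of the 3 tTA- libraries lie above those of the 5 tTA+ libraries, from 0.243 to 0.572.

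The comparison of tTA+ with tTA- libraries asked whether the transactivator background alone came with a different field balance. It called 86 of 23659 genes (0.363%) at an adjusted p under 0.05 by edgeR's quasi-likelihood test with exposure in the model. None of the 10 markers was called by edgeR, DESeq2 or limma-voom. At an unadjusted p under 0.05 each of the 3 tools gave 3 markers, and edgeR gave 1362 genes (5.76%). By edgeR those 3 were below 0, as were 828 of all genes (3.5%). The median log2 fold change was -0.19 over the 10 markers, with 3 above 0 and 7 below, and 0.01 over all genes tested. Without SOR replicate 3 edgeR gave 5 markers at an unadjusted p under 0.05, beside 2196 of 23597 genes (9.31%), and the median was -0.19 with 2 above 0 and 8 below.

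Among the CA1 markers, Fibcd1 was at 144, 145 and 156 CPM in the 3 tTA- libraries (SOR replicate 1, homecage replicates 1 and 2). In the tTA+ libraries it was at 135, 134 and 106 CPM in SOR replicates 2, 3 and 4 and at 109 and 128 CPM in homecage replicates 3 and 4. Every tTA+ library was below every tTA- library, with a log2 fold change of -0.29 (SE 0.108, edgeR unadjusted p = 0.023, adjusted p = 0.691). The other 3 CA1 markers overlapped between genotypes. Their log2 fold changes were 0.04 (SE 0.121) for Wfs1, -0.13 (SE 0.0928) for Mpped1 and 0.05 (SE 0.223) for Pou3f1, which was at -0.10 (SE 0.102) without SOR replicate 3.

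All 3 CA2 markers had a log2 fold change below 0 and none passed the test. Rgs14 was at 144, 154 and 137 CPM in the tTA- libraries (SOR replicate 1, homecage replicates 1 and 2). In the tTA+ libraries it was at 112, 183 and 109 CPM in SOR replicates 2, 3 and 4 and at 108 and 122 CPM in homecage replicates 3 and 4. All tTA+ libraries but SOR replicate 3 were below the tTA- libraries. The log2 fold change was -0.24 (SE 0.16, adjusted p = 1 by edgeR) with all 8 libraries. Without SOR replicate 3 Rgs14 was called lower, at -0.35 (SE 0.0714, edgeR adjusted p = 0.0373), in a fit that called 288 of 23597 genes (1.22%). In the homecage libraries alone, 2 against 2 and a fit added after the data were seen, it was called at -0.33 (SE 0.0803, edgeR adjusted p = 0.0465), where 944 of 22617 genes (4.17%) were called. No other marker was called in either fit.

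Amigo2 was at 33.1, 25.1 and 24.4 CPM in the tTA- libraries and at 26.8, 24.4, 25.5, 17.5 and 23.6 CPM in the tTA+ libraries, in the same order of libraries. The genotypes overlapped, and the log2 fold change was -0.31 (SE 0.115, edgeR unadjusted p = 0.0206, adjusted p = 0.675). Pcp4 was at 25.8, 16.2 and 18.5 CPM in the tTA- libraries and at 13.1, 4.65, 21.9, 19.8 and 16.9 CPM in the tTA+ libraries. Its log2 fold change of -0.38 had an SE of 0.384. It became -0.18 (SE 0.177) without SOR replicate 3 and 0.08 without SOR replicate 1.

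Of the CA3 markers, Iyd was at 7.01, 7.15 and 6.56 CPM in the tTA- libraries and at 5.11, 6.2, 5.11, 4.75 and 5.32 CPM in the tTA+ libraries. It was lower in 5 of 5 tTA+ libraries than in any tTA- library, with a log2 fold change of -0.41 (SE 0.135, edgeR unadjusted p = 0.0119, adjusted p = 0.538). Bok, at -0.09 (SE 0.158), and Cpne4, at 0.01 (SE 0.0913), overlapped between genotypes. Without SOR replicate 3 Bok did not overlap, at 85.6 to 89.9 CPM in tTA+ and 91.2 to 104 CPM in tTA- libraries, and its log2 fold change was -0.19 (SE 0.066, edgeR unadjusted p = 0.0126, adjusted p = 0.305). So with all libraries the 3 CA3 markers did not share a direction, and the tTA difference of the CA3 score, -0.14, was -0.0176 without Iyd. Groups that do not overlap were found for 2 of the 10 markers, Fibcd1 and Iyd, and for 1364 of the 23659 genes tested (5.77%). With tTA+ libraries lower this held for those 2 markers and for 818 genes (3.46%). Rgs14 and Bok joined them without SOR replicate 3, 4 of 10 markers beside 2162 of 23597 genes (9.16%).

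**Figure D4:**
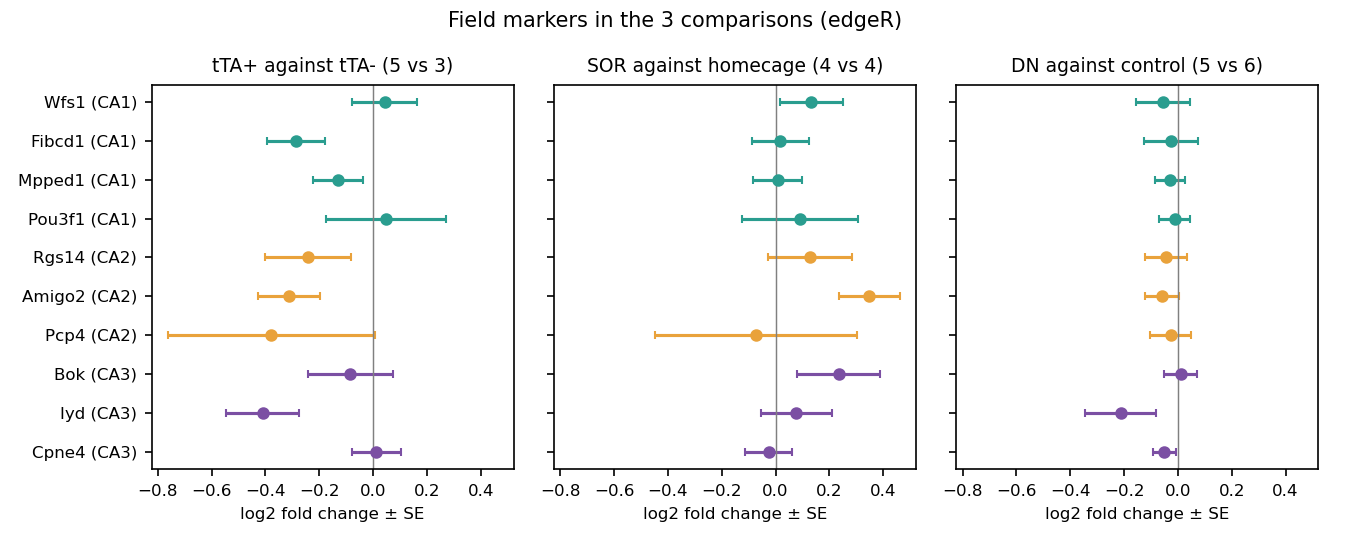
Log2 fold change ± SE (edgeR) of the 10 field markers for tTA+ against tTA- libraries (5 against 3 libraries), SOR against homecage (4 against 4) and DN against control (5 against 6). By tTA genotype 7 of the 10 lie left of 0 (Fibcd1, Mpped1, the 3 CA2 markers, Bok and Iyd), the bars of Pcp4 and Bok reaching 0. By SOR exposure 8 of the 10 lie right of 0, Amigo2 furthest, with the bars of Amigo2, Bok and Wfs1 clear of 0. In experiment 1 all but Iyd lie within 0.06 of 0.

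Further genes known for each field were counted beside the markers. Of 5 other CA1 genes and 6 other CA2 genes none was called by tTA genotype, with medians of -0.03 in each list. The medians were -0.21 for the CA1 list and 0.03 for the CA2 list without SOR replicate 3. Among the CA1 genes were Spink8 at 0.14, Gpr161 at 0.12, Man1a at -0.24 and Ndst4 at -0.33 on the log2 scale. Of the CA2 genes 3 were above 0, Map3k15 at 0.66 (SE 0.181, edgeR adjusted p = 0.338), Avpr1b at 0.12 and Cacng5 at 0.05, and 3 below, Stard5 at -0.34 (SE 0.111, edgeR adjusted p = 0.532), Necab2 at -0.17 and Fgf2 at -0.11. Of 6 other CA3 genes 1 was called, Npy2r, the Y2 receptor for neuropeptide Y. Npy2r was at 66.7, 87.0 and 80.1 CPM in the tTA- libraries and at 29.9 to 42.8 CPM in the tTA+ libraries, with a log2 fold change of -1.01 (SE 0.122, edgeR adjusted p = 0.00602). The other 5 were not called: Slit2, an axon guidance ligand, at -0.28, Grik4, a kainate receptor subunit, at -0.21, Nectin3, an adhesion protein, at -0.17, Elavl2, an RNA-binding protein, at 0.01, and Cdh24, a cadherin, at 0.03. The median of the 6 was -0.19, with 4 below 0, and -0.14 without SOR replicate 3, with 5 below 0. Of 4 genes shared by pyramidal neurons of all fields none was called, among them Slc17a7, the vesicular glutamate transporter VGLUT1, at -0.04 (SE 0.111).

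Granule cells of the dentate gyrus lie beside the pyramidal fields in the same dissection. Of 9 of their genes 3 were called lower in tTA+ libraries and 1 higher by edgeR, and the median was -0.6. Without SOR replicate 3, 4 were called lower, Rfx3 in addition, and 1 higher, with a median of -0.53. C1ql2, a secreted synaptic organiser, fell from 88.1 ± 6.82 CPM (SD, n = 3) to 19.7 ± 4.66 CPM (n = 5), a log2 fold change of -2.2 (SE 0.159, adjusted p = 0.000218). Trpc6, a cation channel, was called at -1.21 and Dsp, the desmosomal protein desmoplakin, at -1.06. Tdo2, tryptophan dioxygenase, was called higher at 0.88. Prox1, the transcription factor that sets granule cell identity, was not called, at -0.67 (SE 0.182, adjusted p = 0.331). These genes and their direction were known from earlier results of the data, so they are a description beside the pyramidal markers.

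The summed level of the 9 granule cell genes was 736 to 932 CPM in the tTA+ and 1157 to 1284 CPM in the tTA- libraries, with no overlap. The 4 CA1 markers summed to 346 to 444 CPM in tTA+ and 408 to 446 in tTA- libraries, the CA2 markers to 146 to 212 and 180 to 203, and the CA3 markers to 225 to 272 and 230 to 247. These 3 sums overlapped. The 6 other CA3 genes summed to 214 to 270 CPM in tTA+ and 299 to 335 CPM in tTA- libraries, with no overlap, and their sum without Npy2r was 181 to 230 and 233 to 252 CPM. Without SOR replicate 3 the tTA+ CA2 sum was 146 to 162 CPM, below the tTA- range, while the CA1 sum of 346 to 421 CPM and the CA3 sum of 225 to 234 CPM still overlapped it. Of 8 genes of neocortex and subiculum 1 was called, Tbr1, a transcription factor of deep-layer cortical neurons, higher at 1.63 in tTA+ libraries, and of 5 thalamic genes 1 was called, Ntng1, lower at -0.92. No gene of the interneuron, choroid plexus, oligodendrocyte, astrocyte, microglia or endothelial lists was called. All 8 oligodendrocyte genes (median 0.17), all 6 microglia genes (median 0.08), 5 of 6 astrocyte genes (median 0.08) and 5 of 6 interneuron genes (median 0.23) had a log2 fold change above 0. For choroid plexus it was 2 of 7 (median -0.45) and for endothelial genes 2 of 5 (median -0.1). Leaving out SOR replicate 3, the counts above 0 were 8 of 8 oligodendrocyte (median 0.12), 5 of 6 microglia (0.12), 4 of 6 astrocyte (0.06), 5 of 6 interneuron (0.16), 2 of 7 choroid plexus (-0.23) and 1 of 5 endothelial genes (-0.12). The part of these other cell types and regions in the levels of the field markers was not tested.

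**Figure D5:**
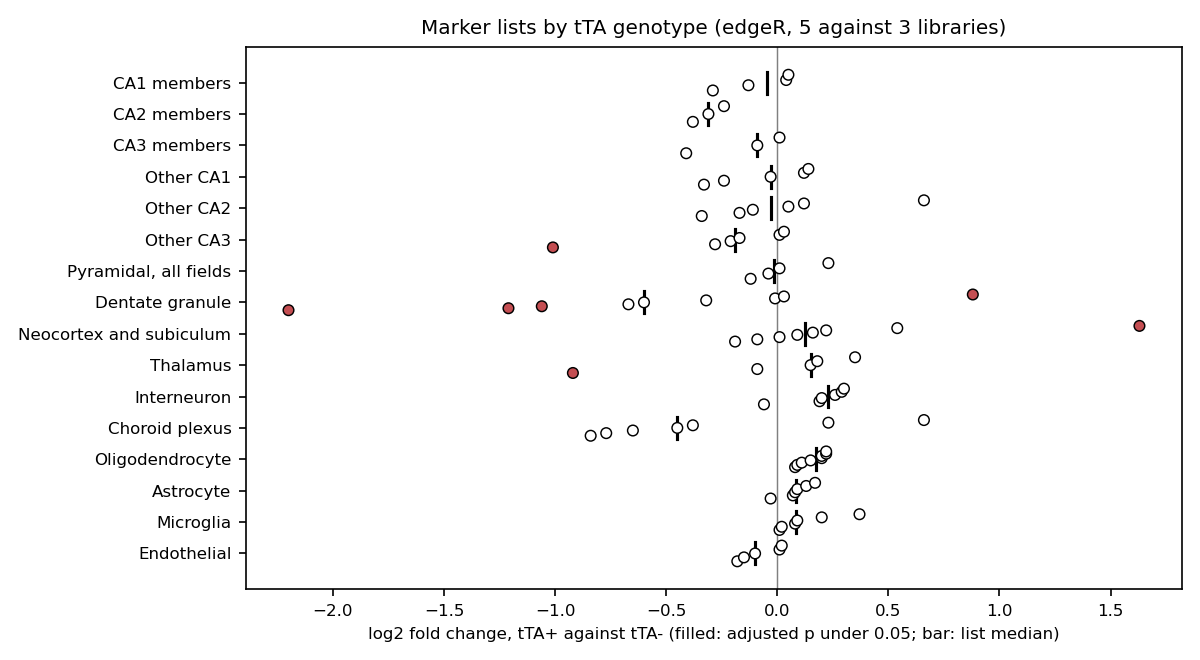
Log2 fold change of tTA+ against tTA- libraries (x axis) for each gene of the field markers and of the other field and cell type lists (y axis), filled where the gene was called, with a bar at each list's median. The CA1, CA2 and CA3 markers lie between -0.41 and 0.05, while the dentate granule list reaches -2.2 and its median is -0.6.

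SOR against homecage libraries called 11 of 23659 genes (0.0465%) by edgeR with tTA genotype in the model. No field marker was called by edgeR, DESeq2 or limma-voom, and each tool gave 1 at an unadjusted p under 0.05, beside 1429 genes (6.04%) by edgeR. That marker was Amigo2, at 33.1, 26.8, 24.4 and 25.5 CPM in the 4 SOR libraries and 25.1, 24.4, 17.5 and 23.6 CPM in the 4 homecage libraries. The groups overlapped, and the log2 fold change was 0.35 (SE 0.113, edgeR unadjusted p = 0.0107, adjusted p = 0.78). The median over the 10 markers was 0.08, with 8 above 0 and 2 below, against 0.01 over all genes. No marker separated the groups without overlap, as 1314 genes (5.55%) did. The median was 0.02, with 6 above 0 and 4 below, without SOR replicate 3. Rgs14 went from 0.13 to -0.05, Pou3f1 from 0.09 to -0.15, Bok from 0.23 to 0.06 and Pcp4 from -0.07 to 0.18 when that library was left out, and Amigo2 was at 0.37. Among other lists all 8 oligodendrocyte genes (median 0.13) and 4 of 6 astrocyte genes (median 0.1) were above 0. Without SOR replicate 3 these were 7 of 8 (0.04) and 4 of 6 (0.07). Of the other CA3 genes 5 of 6 (median -0.1) and of the thalamic genes 4 of 5 (median -0.07) were below 0.

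Choroid plexus, the tissue that makes cerebrospinal fluid, lies against the hippocampus, and its genes ranged widely between these dissections. Their summed level was 1012, 2200, 23.5 and 56.7 CPM in SOR replicates 1 to 4 and 67.4, 173, 73.4 and 44.0 CPM in the homecage replicates. All 7 had a log2 fold change above 0, with a median of 2.3, and none was called. The part of this tissue in the field marker levels was not tested.

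The DN transgene, compared within experiment 1, called 2 of 22391 genes (0.00893%) by edgeR. No field marker was called, and none had an unadjusted p under 0.05 by edgeR, DESeq2 or limma-voom, where 858 genes (3.83%) did by edgeR. The log2 fold changes ran from -0.21 for Iyd to 0.01 for Bok, with 9 of 10 below 0 and a median of -0.04. No marker separated the groups without overlap, as 69 genes (0.308%) did. For Iyd, DN replicates 1 to 5 gave 4.65, 4.63, 3.32, 2.85 and 5.08 CPM, and the 6 controls gave 4.12 CPM at the lowest, 4.69 at the median and 5.29 at the highest. DN replicates 3 and 4 were below every control and the other 3 were not (SE 0.132, edgeR unadjusted p = 0.12). The CA1 share of the summed CPM per kb was 44.7% ± 1.21 (SD, n = 5) in DN and 44.8% ± 1.47 (n = 6) in control libraries, and the CA3 share was 31.7% ± 0.953 and 31.5% ± 0.890. All 7 choroid plexus genes were below 0 in the DN comparison, with a median of -1.05 and none called. All 9 dentate granule genes (median -0.08) and 7 of 8 oligodendrocyte genes (median -0.04) were also below 0. Endothelial genes went the other way, with 4 of 5 above 0 (median 0.03). No gene of these lists was called.

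The labels place the libraries in 2 experiments and give no processing date, and levels of the experiments are set side by side with no test. Pou3f1 was at 28.0 to 59.5 CPM in experiment 2 and 16.5 to 21.1 CPM in experiment 1. Bok was at 85.6 to 146 CPM and 49.9 to 66.4 CPM, and Rgs14 at 108 to 183 CPM and 75.7 to 106 CPM. These 3 of 10 markers did not overlap between the experiments, as did 1697 of 22175 genes (7.65%).

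Libraries of 1 condition, tTA+/DN- after SOR, occur in both experiments, as SOR replicates 2 to 4 of experiment 2 and the 6 controls of experiment 1. In these matched libraries the same 3 of 10 markers did not overlap, as did 4862 of 22175 genes (21.9%), a share not far from that of the markers. Bok was at 86.0 to 146 CPM in experiment 2 and 53.5 to 61.9 CPM in experiment 1, Pou3f1 at 28.0 to 59.5 and 16.5 to 21.1 CPM, and Rgs14 at 109 to 183 and 91.1 to 106 CPM. On the log2 scale, experiment 2 minus experiment 1 was 0.872 for Bok, 0.989 for Pou3f1 and 0.431 for Rgs14, and 0.627, 0.668 and 0.189 without SOR replicate 3. Cpne4 was at -0.0195 with that library and 0.0506 without it.

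Genes called by tTA genotype were also read in the 11 libraries of experiment 1, all tTA+. C1ql2 was at 9.09 to 17.6 CPM and Npy2r at 29.6 to 44.6 CPM there, below the tTA- libraries of experiment 2. Trpc6, at 35.3 to 58.6 CPM, and Dsp, at 32.7 to 52.3 CPM, were also below those libraries, which ran from 111 to 124 and from 71.2 to 92.7 CPM. Tdo2, at 15.9 to 23.5 CPM, lay between the tTA- libraries at 13.5 to 14.7 CPM and most of the tTA+ libraries at 22.4 to 28.4 CPM.

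Last, the protein-coding genes most like each field score were named, by Pearson's r over 19 libraries centred within experiment and tTA genotype. For CA1 these were Slc17a7 (r = 0.901), Unc5a, Nck2, Fam234b and Cpt1c. For CA2 they were Pde12 (r = 0.89), Abhd13, Impa1, Nudt11 and Ociad1, and for CA3 Epor (r = 0.878), Psd, Dclk3, Limd2 and Tspan5. The libraries were scaled together, and these values are descriptions. Without SOR replicate 3, 2 of the 5 CA1 genes (Slc17a7 and Fam234b), 0 of the 5 CA2 genes and 2 of the 5 CA3 genes (Epor and Psd) were still among the 5 most alike.

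The same r was taken between markers. Over the 19 libraries the median r was 0.286 for 12 pairs within a field and 0.236 for 33 pairs across fields, and 0.343 and 0.226 without SOR replicate 3. Mpped1 and Pou3f1 had the highest r within a field, 0.569. Rgs14 and Pcp4 had the lowest, -0.775, which became -0.238 without SOR replicate 3. Pairs across fields went further both ways, to 0.789 for Pou3f1 and Rgs14 and to -0.897 for Pou3f1 and Pcp4. Without SOR replicate 3 they ran from -0.543 (Pou3f1 and Pcp4) to 0.753 (Rgs14 and Cpne4), and the highest within a field was 0.64. So the highest r was not within a field, with or without that library.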

How the data were processed

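The authors deposited whole-number counts per gene, not normalized, in 1 table for 19 libraries. The submitters' processing notes name STAR, SAMtools 1.6, featureCounts 1.4.4 and mm10; annotation, strand and the treatment of multiply mapped reads are not given in the sources used here, so genes that overlap others are uncertain. Symbols, exon lengths and transcripts came from GENCODE M21 (51596 of 51789 identifiers matched). Replicates of a group had a chi-square per degree of freedom of 4.63 to 73.4, so none was counted as a repeat of another. The labels do not say that each library is a separate mouse, and p-values then measure only the spread between these samples. Every marker had at least 93 counts in each library.

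Each experiment was fitted alone with edgeR 4.0.16 (glmQLFit, robust, TMM, filterByExpr, two-sided, Benjamini-Hochberg over all genes tested, R 4.3.3), experiment 2 with exposure and tTA together. Levels are CPM with TMM over 19 libraries, and scores use a prior count of 2. Genes were named as all 10 markers, called genes of the lists, and the 5 genes most like each field, with a mean of at least 1 CPM. The genes named from the other CA1, CA2 and CA3 lists, Prox1 and Rfx3 were named after their values were seen, and 1 gene of the other CA1 list is not reported here. Alternatives were DESeq2 1.42.0, limma 3.58.1 (voom), other scalings and filters, all libraries in 1 fit, other covariates, a replicate block and each library left out. On simulated data with 200 genes changed by a fold of 2, the fit recovered 168 for tTA (23208 genes), 163 for SOR (23175 genes) and 197 for DN (22123 genes), with 16, 16 and 7 false calls. The changed genes were drawn from the better counted ones, and no simulated library was skewed by GC content. Changes as small as those of the markers were not simulated, so the recovery does not say how often they would be called. The markers, lists and tests were chosen with earlier results of these data known.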

Additional observations from a re-analysis of the deposited data

Results flagged for a closer look

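Of 52 groups of values examined for 1 sample far from the others, 4 were set apart, and chance sets apart about 1 in 20. Pou3f1 was at 59.5 CPM in SOR replicate 3 of experiment 2, against 28.0 to 33.2 CPM in the other 3 SOR libraries. In homecage replicate 3 it was at 29.0 CPM, against 36.7 to 37.7 CPM in the other 3 homecage libraries. Mpped1 was at 148 CPM in DN replicate 4, against 123 to 130 CPM in the other 4 DN libraries. The CA2 score of control replicate 5 in experiment 1 was -0.213, against -0.0894 to -0.0223 in the other 5 controls.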

How the results depend on the processing

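No field marker was called in any comparison under any alternative, except Rgs14 for tTA genotype without SOR replicate 3 and in the homecage libraries alone (1 marker called in each). Over the alternatives its adjusted p ran from 0.0373 to 1. The 86 genes called for tTA became 252 with DESeq2, 265 with no filter on low counts, 383 with all 19 libraries in 1 fit and 944 in the homecage libraries alone. Leaving out 1 library gave 10 (without SOR replicate 1) to 288 (without SOR replicate 3). The 11 genes called for SOR became 93 with DESeq2, 100 with all 19 libraries, 82 with no filter, 7 with upper quartile scaling, 20 with no covariate and 0 in tTA+ libraries alone by edgeR, where 374 genes had an unadjusted p under 0.05. Leaving out 1 library gave 1 to 49. DN called 2 genes under all 19 alternatives. The cause of these changes was not tested. The tTA difference of the CA3 score, -0.14, was -0.0176 without Iyd. By tTA genotype Fibcd1, Mpped1, Rgs14, Amigo2, Bok and Iyd stayed below 0 under all 17 alternatives, and Wfs1, Pou3f1, Pcp4 and Cpne4 changed sign under 2 to 4. With the replicate number as a block SOR called 1 gene and DN 2. Same-numbered libraries correlated at 0.0806 to 0.529 (SOR and homecage) and -0.0497 to 0.34 (DN and control), so the numbers were not taken as pairs. The tTA genotypes share too few numbers for a block. Iyd, at 113 to 329 counts per library, and Pcp4, at 93 counts in SOR replicate 3, rest on the fewest counts.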
